A study of Homo sapiens with 9 samples.

Results

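The genes described here belong to the integrated stress response, together with cytosolic tRNA synthetases that the same response controls, in A549 cells, an established human line from a lung adenocarcinoma. They are 41 named genes, each found in the data by its symbol. An array row carrying that symbol alone was found for 40 of them. The exception was ATF5, whose row names several genes and is given no value here. CTH and FGF21 lay below the level filter, a mean of 4.25 over the 9 arrays on the log2 scale, so 38 of the 41 were tested, among 15964 tested genes of 22411 with such a row. The cells were transfected for 72 h with siRNA against FAM210B, with siRNA against UQCRC2, or with a negative control siRNA, on 3 arrays each. UQCRC2 is a core subunit of respiratory complex III, and the FAM210B protein sits in mitochondrial membranes. Per the labels each siRNA was a mixture, and the labels name no other agent and no altered genotype. The 3 arrays of a group are called biological replicates, with nothing said of separate cultures. The p-values therefore cover only the spread among the arrays at hand, which may be technical. Values are log2 signals that the authors made with RMA, and in such bulk RNA a lower level per cell and fewer cells of a kind cannot be told apart.

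The integrated stress response starts when a kinase phosphorylates the translation factor eIF2, in response to shortage of amino acids, misfolded protein, heme deficiency, viral RNA or mitochondrial stress. General protein synthesis then falls, while the transcription factor ATF4 is made from its mRNA more efficiently. ATF4, as a dimer with partners such as C/EBP proteins, raises the transcription of genes for amino acid synthesis, amino acid uptake and the loading of tRNAs, and of feedback regulators that end the response. Because ATF4 is controlled largely at translation, its RNA level is an incomplete readout of its activity.

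ATF4 dimers bind a composite sequence, the C/EBP-ATF response element, whose core can be written TGATGNAA. This motif was searched on both strands of RefSeq promoter windows of 300 bases, from 250 bases before to 50 bases after an annotated start (assembly GRCh38.p14). Of the 41 genes, 34 had a window, and 13 of these (38.2%) held the motif, against 4.46% of all 27305 genes with a window and 2.74% of the 11579 tested genes with one. A gene could have several windows (35116 windows in all, 52 for members) and counted when any of them held the motif. The members were chosen as genes of this response, so a share above other genes was in part fixed by that choice. Among the member synthetases with a window, 7 of 11 held the motif. A motif of the stricter form TGATGCAA, which is contained in the first, was present in 9 of the 34 (26.5%), against 0.734% of the tested genes. The 7 synthetase windows are shown with ASNS, whose promoter is the textbook case. Each is printed 5′ to 3′ on the gene's strand, as 30 bases with the motif in capitals. In NARS1 and ASNS the motif reads along the gene's strand, and in the other 6 the capitals are its reverse complement.
AARS1, chr16:70289675-70289704, minus strand: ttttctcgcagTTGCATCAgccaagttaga
CARS1, chr11:3057407-3057436, minus strand: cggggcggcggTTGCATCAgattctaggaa
GARS1, chr7:30594834-30594863, plus strand: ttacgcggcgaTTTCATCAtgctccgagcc
IARS1, chr9:92293692-92293721, minus strand: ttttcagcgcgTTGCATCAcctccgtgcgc
MARS1, chr12:57488053-57488082, plus strand: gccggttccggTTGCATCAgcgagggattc
NARS1, chr18:57621804-57621833, minus strand: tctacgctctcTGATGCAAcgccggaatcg
TARS1, chr5:33440956-33440985, plus strand: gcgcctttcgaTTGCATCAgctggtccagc
ASNS, chr7:97872458-97872487, minus strand: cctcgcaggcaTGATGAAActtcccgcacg

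The other members with the motif were CEBPG, CHAC1, FGF21, SLC3A2 and SLC7A1. In ASNS the motif began 68 bases before the start. The 120 bases upstream of that ASNS start (chr7:97872409-97872528, minus strand) show it in its place.
ASNS upstream: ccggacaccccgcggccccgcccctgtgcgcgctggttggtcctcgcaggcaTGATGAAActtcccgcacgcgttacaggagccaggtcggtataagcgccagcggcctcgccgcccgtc
A match describes these letters only and does not show that a factor was bound in these cells.

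**Figure D1:**
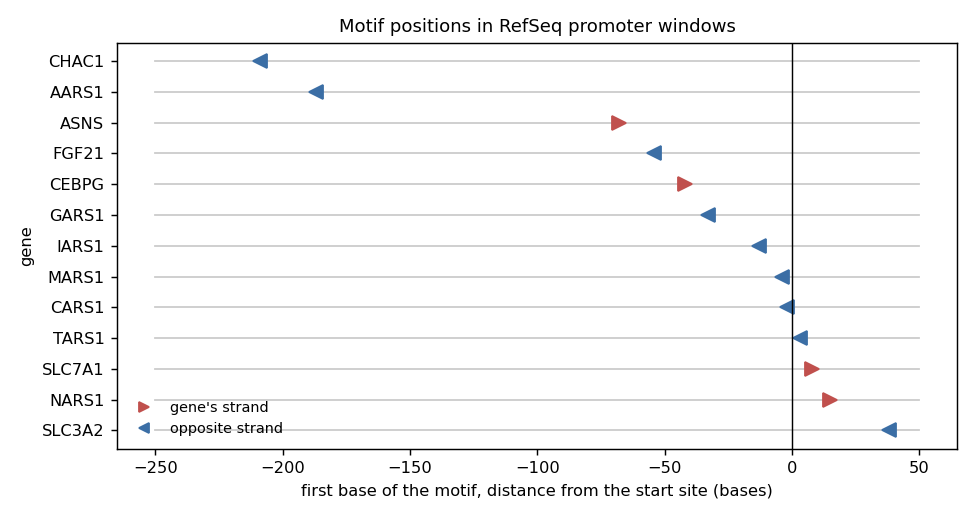
Distance in bases of the first motif base from the annotated start (vertical line at 0) in the 13 members whose RefSeq promoter window holds TGATGNAA, with 1 grey line per window. Symbols point right for the gene's strand and left for the opposite strand. CHAC1 (209 bases before) and AARS1 (187 bases before) lie farthest upstream, and the other 11 lie between 68 bases before and 38 bases after the start.

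Some arrays stood apart from their groups, in the members as in other genes. UQCRC2 read 8.36 ± 0.01 (SD, n = 3) under its own siRNA against 9.83 ± 0.13 in control, at 36.0% of that signal (limma adjusted p = 0.000375). FAM210B under its own read 6.48, 6.10 and 6.22 against 6.39, 6.46 and 6.48 in control, and the groups overlapped. Its difference was -0.17 ± 0.09 (SE, limma adjusted p = 0.239), so no fall of the targeted RNA was called with all 9 arrays. It was -0.26 (0.0211) without si-FAM210B replicate 1 and control replicate 3. FAM210B therefore does not check the label of replicate 1. The first principal component held 55.3% of the variance and set si-FAM210B replicate 1 (-33.2) and control replicate 3 (-6.99) away from their groups. Of the 13 synthetases, all 13 were lowest in si-FAM210B replicate 1 among the 3 arrays of that group, where 39.5% of all tested genes were. In control replicate 3 the count was 12 of 13, where 35.6% of all genes were lowest. The median of the 38 members relative to the control mean was -0.27, -0.05 and -0.08 in si-FAM210B replicates 1 to 3 and 0.06, 0.10 and 0.06 in si-UQCRC2. The 3 si-FAM210B arrays were thus lower than the 3 control arrays, which ranged from -0.02 to 0.01, and the si-UQCRC2 arrays higher, but replicate 1 was far lower than the others. A fit without both deviating arrays is therefore given for the members described by array, and as counts for the other gene lists, and the part of array quality in them was not tested.

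**Figure D2:**
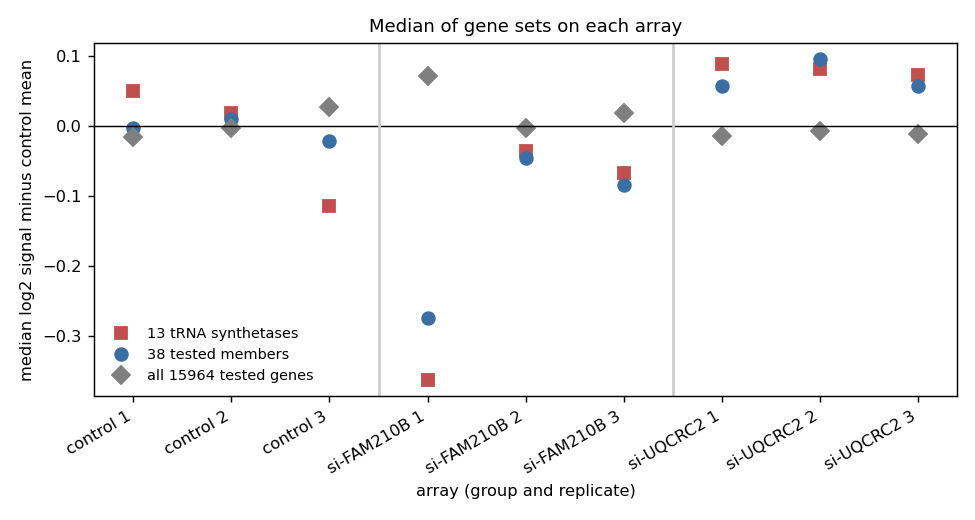
Median log2 signal of the 13 synthetases (squares), the 38 tested members (circles) and all 15964 tested genes (diamonds) on each of the 9 arrays, minus the mean of the 3 control arrays for each gene. si-FAM210B replicate 1 is lowest for the synthetases (-0.36) and the members (-0.27) but highest for all genes (0.07).

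Few members were called against control under either siRNA, while the comparison between both siRNAs separated many of them. Against control, GDF15 alone was called with si-FAM210B, as lower, and with si-UQCRC2 SESN2, PHGDH and WARS1 were called higher and SLC3A2 lower. Lack of a call does not show lack of change. At an unadjusted p under 0.05 there were 11 members with si-FAM210B and 10 with si-UQCRC2. Of the 38, 28 lay below 0 with si-FAM210B and 25 above 0 with si-UQCRC2. Between both siRNAs, 10 members were lower with si-FAM210B (ASNS, PSAT1, PHGDH, GDF15, VLDLR, AARS1, CARS1, IARS1, WARS1 and YARS1) and 3 were higher (PPP1R15A, SLC7A5 and SLC3A2). A gene is called here when limma's Benjamini-Hochberg adjusted p over all 15964 genes was under 0.05. That gave 1 of 38 members (2.63%) for si-FAM210B against control, where 6.28% of all tested genes were called (2.78% higher and 3.5% lower), and 4 of 38 (10.5%) for si-UQCRC2 against control, where 4.46% were (3.02% and 1.44%). Between the siRNAs it gave 13 of 38 (34.2%), against 9.78% of all genes (3.28% and 6.5%). Both comparisons with control share the control arrays.

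The sizes were small. The median log2 fold change of the 38 members was -0.11 for si-FAM210B against control (all genes 0.03), 0.09 for si-UQCRC2 against control (all genes -0.01) and -0.22 for si-FAM210B against si-UQCRC2 (all genes 0.05). The arrays of both groups did not overlap in 14, 19 and 30 members of 38 in these comparisons, against 24.0%, 29.2% and 41.7% of all genes. In 21 of the 38 (55.3%) the group means ran from si-FAM210B through control to si-UQCRC2, the order of 16.8% of all tested genes. In ASNS, PSAT1, PHGDH, AARS1 and CARS1 every array kept that order, with no overlap between any of the 3 groups, which was so for 1.57% of all genes. WARS1 also had 3 separate groups, with control lowest. None of the remaining 32 tested members had them.

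**Figure D3:**
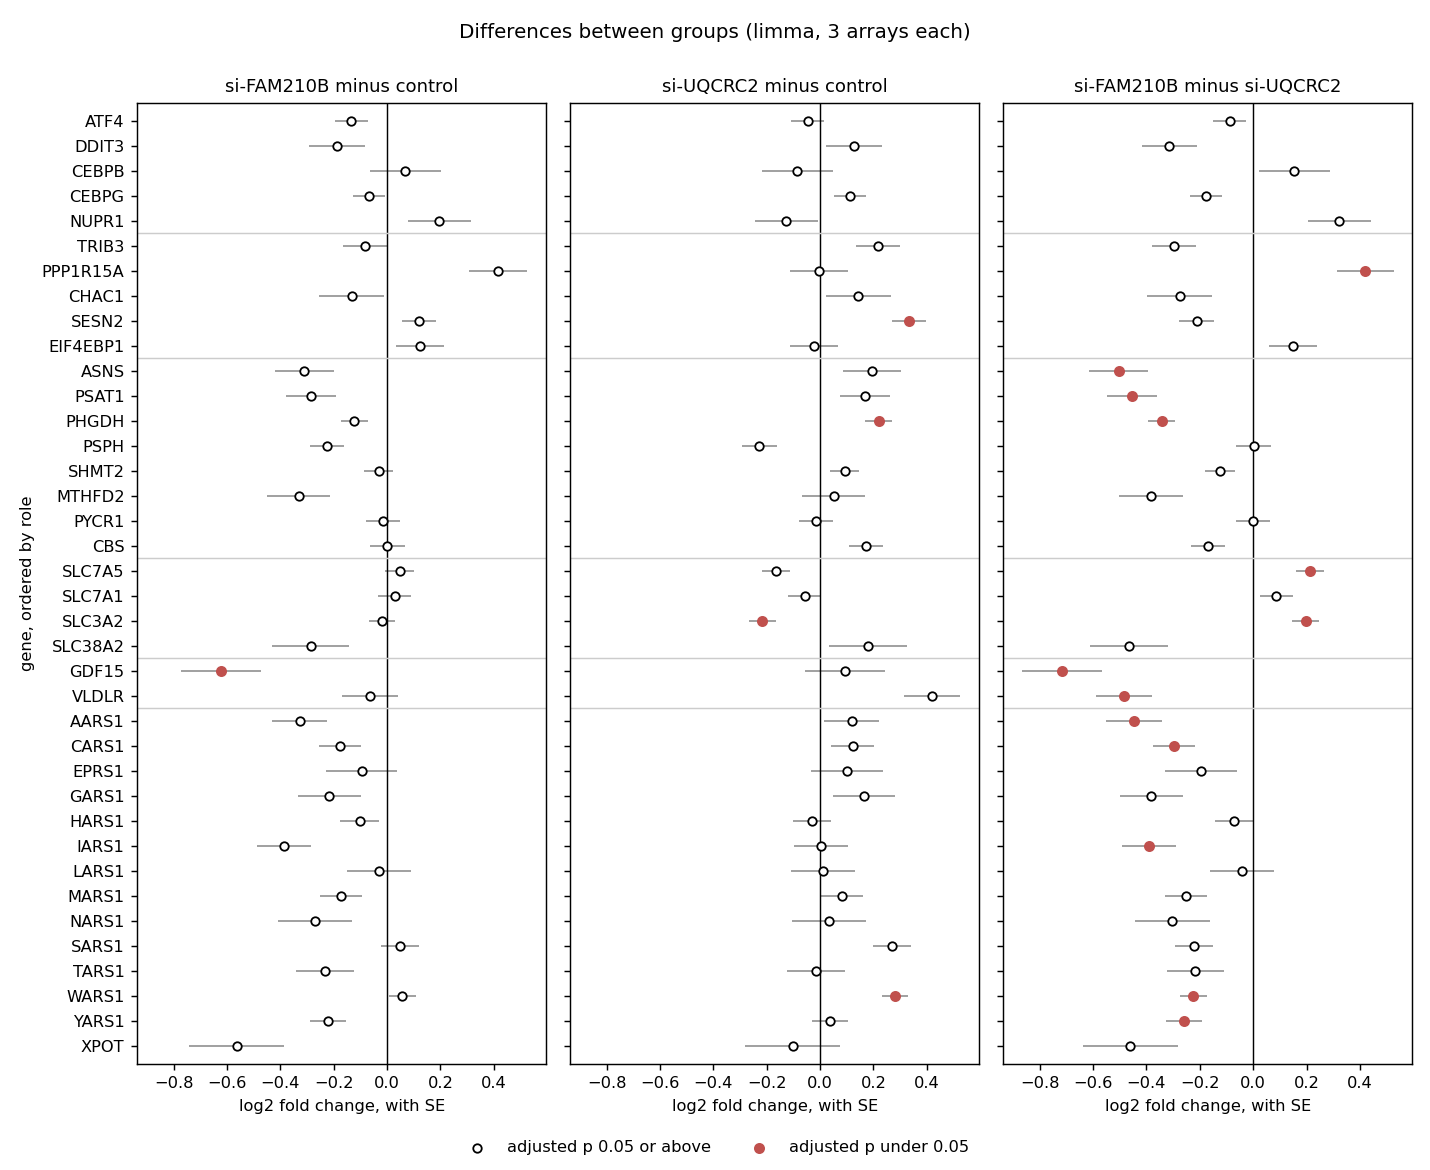
Log2 fold change with its standard error for the 38 tested members in each of the 3 comparisons (horizontal axes in log2 units, 3 arrays per group, genes ordered by role). Filled points had a limma adjusted p under 0.05: 1 in the first panel, 4 in the second and 13 in the third.

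The counts of called members leaned on single arrays. For si-FAM210B against control the count was 2 without si-FAM210B replicate 1, 6 without replicate 2 and 0 without replicate 3. It was 1, 0 and 4 without control replicates 1, 2 and 3 and 0 without any one si-UQCRC2 array. For si-UQCRC2 against control it was 9, 4 and 2 without si-FAM210B replicates 1, 2 and 3, 0, 0 and 2 without control replicates 1, 2 and 3, and 0 without any one si-UQCRC2 array. Between the siRNAs it was 15, 21 and 6 without si-FAM210B replicates 1, 2 and 3, 8, 7 and 14 without control replicates 1, 2 and 3, and 1 without any one si-UQCRC2 array. That 1 was PHGDH each time. Calls over all genes moved as well, between 1.92% and 12.4% in the first comparison, 1.56% and 10.4% in the second and 3.16% and 20.5% in the third. With any one si-UQCRC2 array left out they were 3.16% to 3.58% between the siRNAs, so 1 member of 38 (2.63%) was then below that background. Without both deviating arrays the counts were 9 (24.4% of all genes called), 11 (17.1%) and 23 (24.0%), and they included every member called with all 9 arrays. The median SD of the members was 0.03 in the si-UQCRC2 group, 0.10 in control and 0.17 in si-FAM210B, and all comparisons draw on 1 estimate of spread from the 9 arrays.

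No transcription factor of the response passed the test in the fit reported. Limma called none of the 5 tested in any comparison, and at an unadjusted p under 0.05 the counts were 0 against control with either siRNA and 3 between the siRNAs. ATF4, the main effector, read 9.10, 9.13 and 9.18 in control, 8.90, 9.05 and 9.06 with si-FAM210B and 9.14, 9.04 and 9.09 with si-UQCRC2. Its si-FAM210B arrays lay below the controls, by -0.14 ± 0.06 (SE, limma adjusted p = 0.199; -0.06 and 0.328 with both deviating arrays left out), and its si-UQCRC2 arrays overlapped both other groups. DDIT3, the pro-apoptotic factor CHOP, read 4.70, 4.95 and 5.05 in control, 4.51, 4.81 and 4.81 with si-FAM210B and 4.96, 5.07 and 5.05 with si-UQCRC2. DDIT3 lay near the level filter, and only the siRNA groups were apart, from each other (-0.31 ± 0.10, adjusted p = 0.0870; -0.21 and 0.0680 with both left out). NUPR1, a small stress-induced chromatin protein, read 7.22, 6.72 and 6.99 with si-FAM210B against 6.71, 6.58 and 6.69 with si-UQCRC2 and 6.69, 6.71 and 6.95 in control. Its difference between the siRNAs was 0.32 ± 0.12 (adjusted p = 0.108), opposite in sign to that of DDIT3. It was 0.20 with si-FAM210B replicate 1 left out, alone or with control replicate 3 (adjusted p = 0.228 and 0.101), and NUPR1 passed with replicate 2 left out (0.45, 0.0200). The C/EBP partners CEBPB (0.15 between the siRNAs) and CEBPG (-0.18) did not pass there with all arrays. CEBPG passed between the siRNAs without si-FAM210B replicate 2, and DDIT3 did with the replicate number as a block. With array weights CEBPG also passed for si-UQCRC2 against control.

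Among the feedback and stress regulators, SESN2 and PPP1R15A were called, each in 1 comparison. SESN2, a leucine-binding inhibitor of mTORC1, read 6.49, 6.55 and 6.60 in control, 6.68, 6.74 and 6.57 with si-FAM210B and 6.81, 6.90 and 6.92 with si-UQCRC2. All si-UQCRC2 arrays were above all others, and SESN2 rose by 0.33 ± 0.06 over control (SE, adjusted p = 0.0187). The call was lost without control replicates 1 or 2 or any one si-UQCRC2 array (adjusted p = 0.0548 to 0.109), and with both deviating arrays left out SESN2 rose by 0.36 (0.00683). PPP1R15A, also called GADD34, brings a phosphatase to eIF2 and so reverses its phosphorylation. It read 7.16, 6.75 and 6.77 with si-FAM210B, above the 6.39, 6.43 and 6.61 of control and the 6.51, 6.48 and 6.43 of si-UQCRC2. It was higher with si-FAM210B than with si-UQCRC2 by 0.42 ± 0.11 (adjusted p = 0.0373), and its equal difference from control had adjusted p = 0.0502. The PPP1R15A call was lost without si-FAM210B replicate 3, control replicates 1 or 2 or any one si-UQCRC2 array (adjusted p = 0.0511 to 0.139), and without both deviating arrays its difference was 0.29 between the siRNAs and 0.35 from control (adjusted p = 0.00248 and 0.00222).

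The remaining regulators were not called. TRIB3, a pseudokinase that restrains ATF4, and CHAC1, which degrades glutathione, were lower with si-FAM210B than with si-UQCRC2 by -0.30 ± 0.08 (adjusted p = 0.0507) and -0.28 ± 0.12 (0.161). With both deviating arrays left out these differences were -0.36 (adjusted p = 0.00336) and -0.40 (0.00969), and TRIB3 also passed for si-UQCRC2 against control (0.28, adjusted p = 0.0116). EIF4EBP1, a repressor of cap-dependent translation, differed by at most 0.15 in any comparison.

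Of the 8 tested enzymes of amino acid and one-carbon metabolism, PHGDH, PSAT1 and ASNS were lower with si-FAM210B than with si-UQCRC2, and PHGDH also rose with si-UQCRC2 against control. PHGDH, PSAT1 and PSPH carry out the steps from a glycolytic intermediate to serine in that order, and ASNS makes asparagine. PHGDH read 6.60, 6.63 and 6.62 in control, 6.46, 6.51 and 6.50 with si-FAM210B and 6.85, 6.79 and 6.86 with si-UQCRC2. The 3 groups did not touch, and each spread was at most 0.04 (SD). PHGDH rose by 0.22 ± 0.05 with si-UQCRC2 over control (SE, adjusted p = 0.0392) and was lower with si-FAM210B than with si-UQCRC2 by -0.34 ± 0.05 (adjusted p = 0.00346), at 78.9% of that signal. The second of these calls held without each single array (adjusted p up to 0.0304). The first was lost without si-FAM210B replicate 3, any control or any si-UQCRC2 array (0.0667 to 0.203), and the difference of -0.12 from control with si-FAM210B did not pass (0.163). With both deviating arrays left out PHGDH differed by 0.22 and -0.33 in the called comparisons (0.00726 and 0.00122).

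PSAT1 and ASNS were ordered like PHGDH but with a wide spread under si-FAM210B. PSAT1 read 10.31, 10.27 and 10.14 in control, 9.73, 10.05 and 10.09 with si-FAM210B and 10.39, 10.40 and 10.43 with si-UQCRC2. ASNS read 7.68, 7.61 and 7.63 in control, 7.03, 7.54 and 7.42 with si-FAM210B and 7.80, 7.88 and 7.82 with si-UQCRC2. In both genes all 3 groups were apart, and si-FAM210B replicate 1 was far the lowest array. Between the siRNAs PSAT1 differed by -0.45 ± 0.09 (adjusted p = 0.0167) and ASNS by -0.50 ± 0.11 (0.0209), and both calls were lost without any one si-UQCRC2 array (0.0651 to 0.0783 and 0.0711 to 0.0886). Without both deviating arrays the differences were -0.34 and -0.36 (adjusted p = 0.00100 and 0.00257). Against control, the differences of PSAT1 (-0.28 with si-FAM210B, 0.17 with si-UQCRC2) and ASNS (-0.31 and 0.19) did not pass. With both arrays left out they were -0.22 (adjusted p = 0.00959) and 0.12 (0.0709) for PSAT1 and -0.17 (0.0605) and 0.19 (0.0382) for ASNS, so PSAT1 then passed with si-FAM210B and ASNS with si-UQCRC2.

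The last enzyme of the serine pathway departed from the first ones. PSPH read 8.11, 8.04 and 7.94 in control, 7.71, 7.85 and 7.86 with si-FAM210B and 7.82, 7.81 and 7.78 with si-UQCRC2. Both siRNA groups lay below all controls by -0.23 ± 0.07 (adjusted p = 0.0711 and 0.0944), and between them PSPH differed by 0.00. Without both deviating arrays the differences from control were -0.22 and -0.27 (adjusted p = 0.0111 and 0.00342).

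The mitochondrial one-carbon enzymes were not called in the fit reported. MTHFD2, which oxidises the folate-bound carbon unit that SHMT2 takes from serine, read 8.69, 8.64 and 8.46 in control, 7.96, 8.44 and 8.40 with si-FAM210B and 8.61, 8.69 and 8.64 with si-UQCRC2. Its si-FAM210B arrays lay below all others, by -0.33 ± 0.12 from control (adjusted p = 0.124) and -0.38 ± 0.12 from si-UQCRC2 (0.0718). Without both deviating arrays these were -0.24 and -0.23 (adjusted p = 0.00977 and 0.00784). SHMT2 itself differed by at most 0.12 in size, and PYCR1, a proline synthesis enzyme, by at most 0.01. CBS, the first enzyme of transsulfuration, was higher with si-UQCRC2 than control by 0.17 ± 0.06 without passing (adjusted p = 0.220; with both deviating arrays left out, 0.20 and 0.00923). Between the siRNAs CBS differed by -0.17 ± 0.06 (0.117), with no overlap. That difference passed after quantile normalization, median centring or cyclic loess, without si-FAM210B replicate 1, and without both deviating arrays (-0.23, 0.0038).

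The amino acid transporters did not move as 1 group. SLC7A5 and SLC3A2 form the heterodimer that exchanges large neutral amino acids such as leucine, and both were lowest with si-UQCRC2. SLC3A2, the shared heavy chain, read 9.81, 9.83 and 9.84 in control, 9.83, 9.80 and 9.80 with si-FAM210B and 9.62, 9.64 and 9.57 with si-UQCRC2. SLC7A5, the transporting light chain, read 11.55, 11.56 and 11.63 in control, 11.61, 11.62 and 11.65 with si-FAM210B and 11.46, 11.42 and 11.36 with si-UQCRC2. In both genes every si-UQCRC2 array lay below every other array. SLC3A2 fell by 0.22 ± 0.05 against control (adjusted p = 0.0405) and was 0.20 ± 0.05 higher with si-FAM210B than with si-UQCRC2 (0.0366). SLC7A5 was 0.21 ± 0.05 higher with si-FAM210B than with si-UQCRC2 (adjusted p = 0.0346), and its difference of -0.17 from control with si-UQCRC2 did not pass (0.136).

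These transporter calls were fragile. The SLC3A2 call against control was lost without si-FAM210B replicate 3, any control or any si-UQCRC2 array (adjusted p = 0.0680 to 0.222). That call was also lost without the level filter, after quantile normalization, median centring or cyclic loess, and with the replicate number as a block. Both calls between the siRNAs were lost without si-FAM210B replicate 3, control replicates 1 or 2 or any si-UQCRC2 array (0.0522 to 0.169). They were also lost after median centring, with array weights, with only the groups compared and with the replicate number as a block. The SLC7A5 call was lost after quantile normalization too. With both deviating arrays left out SLC3A2 differed by -0.21 from control (0.00957) and both transporters passed between the siRNAs (0.19 and 0.0115 for SLC3A2, 0.22 and 0.00787 for SLC7A5). SLC38A2, a sodium-coupled carrier of small neutral amino acids, was ordered the other way. It read 10.25, 10.17 and 9.99 in control, 9.45, 10.04 and 10.05 with si-FAM210B and 10.26, 10.32 and 10.37 with si-UQCRC2. Its si-UQCRC2 arrays were above all others, and the difference of -0.47 ± 0.14 between the siRNAs did not pass (adjusted p = 0.0714; -0.27 and 0.00649 without both deviating arrays). SLC7A1, a carrier of cationic amino acids, differed by at most 0.09.

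**Figure D4:**
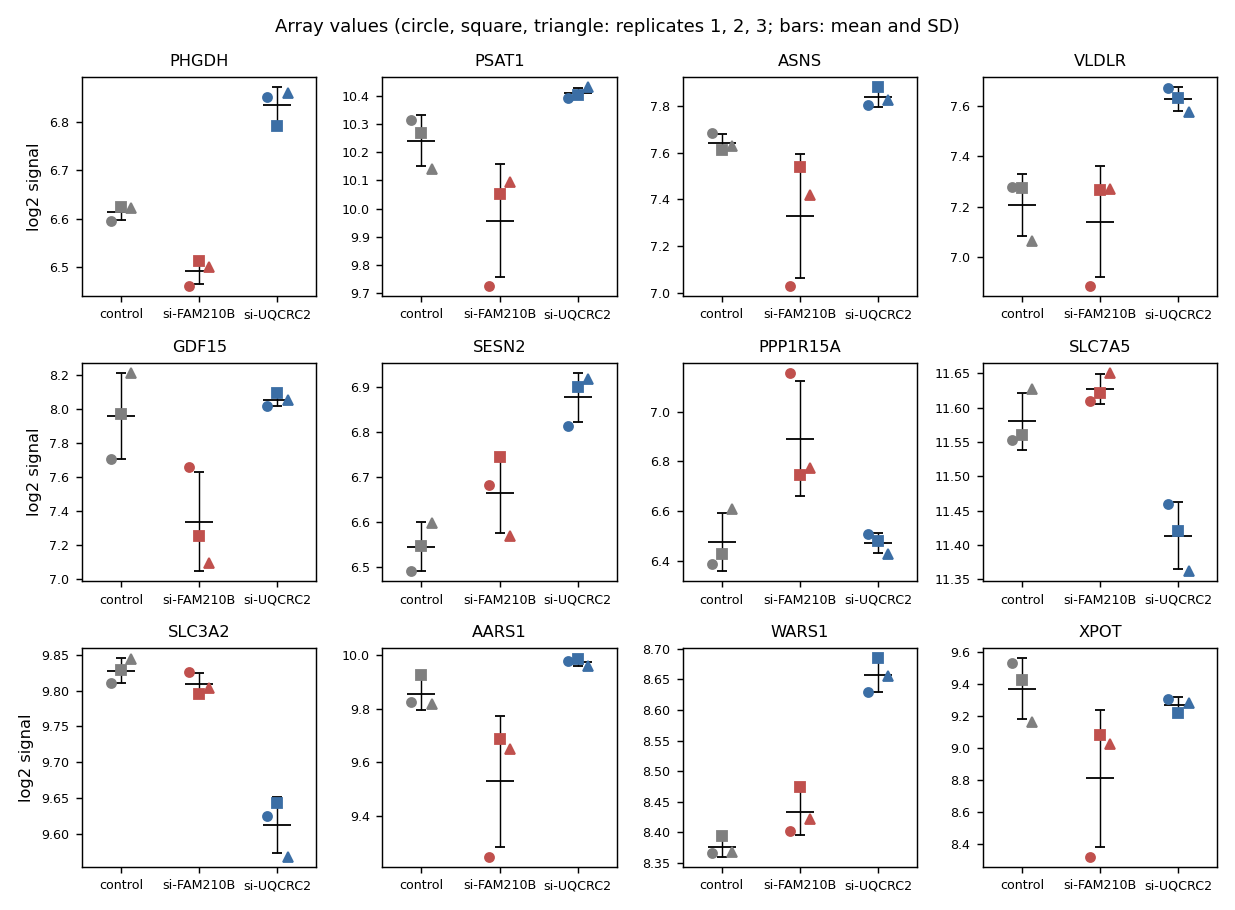
Log2 signal of 12 members in each array (each panel has its own vertical scale, which does not start at 0), by group. Circles, squares and triangles are replicates 1, 2 and 3, and the bars give the mean and SD of 3 arrays. PHGDH shows 3 tight groups, SLC3A2 is lowest with si-UQCRC2, and si-FAM210B replicate 1 is far below its group in ASNS, AARS1 and XPOT.

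GDF15 had the largest difference among the tested members. This secreted factor acts on a brainstem receptor to reduce appetite and is released under mitochondrial and other cell stress. GDF15 read 7.71, 7.97 and 8.21 in control, 7.66, 7.26 and 7.10 with si-FAM210B and 8.02, 8.10 and 8.05 with si-UQCRC2. The highest si-FAM210B array lay just under the lowest control, and here replicate 1 was the highest of its group and not the lowest. GDF15 fell by 0.62 ± 0.15 with si-FAM210B against control (SE, adjusted p = 0.0398) and was lower than with si-UQCRC2 by -0.72 ± 0.15 (0.0174), while si-UQCRC2 differed from control by 0.09 ± 0.15 (0.927). The call against control was lost without si-FAM210B replicates 2 or 3, control replicates 2 or 3 or any one si-UQCRC2 array (adjusted p = 0.0536 to 0.133). That call was also lost after quantile normalization or cyclic loess, with only the groups compared and with the replicate number as a block. The other was lost without si-FAM210B replicate 3 or any one si-UQCRC2 array (0.0564 to 0.0743). GDF15 without both deviating arrays differed by -0.66 and -0.88 (adjusted p = 0.00297 and 0.000503).

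VLDLR, a lipoprotein receptor, was highest with si-UQCRC2. It read 7.28, 7.28 and 7.06 in control, 6.89, 7.27 and 7.27 with si-FAM210B and 7.67, 7.63 and 7.57 with si-UQCRC2. The 3 si-UQCRC2 arrays lay above all others, and the other groups overlapped. Between the siRNAs VLDLR differed by -0.48 ± 0.11 (SE, adjusted p = 0.0208), a call lost without any one si-UQCRC2 array (0.0693 to 0.0891) and -0.36 (0.00105) with both deviating arrays left out. Its difference of 0.42 ± 0.11 between si-UQCRC2 and control had adjusted p = 0.0560 with all arrays and 0.00152 without both deviating ones, where it was 0.35.

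The tRNA synthetases attach each amino acid to its tRNA, and 5 of the 13 (38.5%) were lower with si-FAM210B than with si-UQCRC2, against 6.5% of all tested genes. All 13 differences between the siRNAs were below 0, from -0.45 to -0.04 with a median of -0.25, although only 12 were after quantile normalization (median -0.19) and with array weights (-0.21). Against control, limma called none with si-FAM210B (3 at an unadjusted p under 0.05, median -0.18) and WARS1 alone with si-UQCRC2 (median 0.08). Of all tested genes 6.28% and 4.46% were called in those comparisons. Since all 13 were lowest in si-FAM210B replicate 1, the values without both deviating arrays are given for them. Both arrays were left out because they deviated, in these genes as well, so that fit is not an independent check. There the median between the siRNAs was -0.16, with 11 below 0 and 8 called lower, and the medians against control were -0.10 with 3 of 13 lower and 0.01 with 2 of 13 higher. In that fit 24.0% of all genes were called between the siRNAs, 24.4% for si-FAM210B and 17.1% for si-UQCRC2 against control, so the counts against control were near the background.

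AARS1, the alanine enzyme, read 9.83, 9.93 and 9.82 in control, 9.25, 9.69 and 9.65 with si-FAM210B and 9.98, 9.99 and 9.96 with si-UQCRC2. CARS1, the cysteine enzyme, read 7.31, 7.41 and 7.31 in control, 6.99, 7.31 and 7.21 with si-FAM210B and 7.46, 7.47 and 7.47 with si-UQCRC2. Both had 3 separate groups in the order of PHGDH, although in CARS1 the highest si-FAM210B array nearly touched the lowest controls. Between the siRNAs AARS1 differed by -0.45 ± 0.10 (adjusted p = 0.0271) and CARS1 by -0.30 ± 0.08 (0.0434), and without both deviating arrays by -0.31 and -0.21 (0.00243 and 0.0168). The AARS1 call was lost without any one si-UQCRC2 array (0.0975 to 0.0991). The CARS1 call was lost without those, si-FAM210B replicate 3 or control replicates 1 or 2 (0.0650 to 0.145). Both calls were also lost after median centring and with only the groups compared. That of CARS1 was lost too without the level filter, after quantile normalization, with array weights and with the replicate number as a block.

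IARS1 and YARS1, the isoleucine and tyrosine enzymes, differed from AARS1 in that si-UQCRC2 was close to control. IARS1 read 9.30, 9.16 and 9.02 in control, 8.54, 8.86 and 8.91 with si-FAM210B and 9.14, 9.16 and 9.17 with si-UQCRC2. YARS1 read 7.81, 7.83 and 7.64 in control, 7.44, 7.62 and 7.55 with si-FAM210B and 7.81, 7.80 and 7.78 with si-UQCRC2. In both genes all si-FAM210B arrays lay below all others. Between the siRNAs IARS1 differed by -0.39 ± 0.10 (adjusted p = 0.0403) and YARS1 by -0.26 ± 0.07 (0.0423), and from control by -0.39 (0.0541) and -0.22 (0.0843). The IARS1 call was lost without control replicate 2 or any si-UQCRC2 array (0.0662 to 0.138), and the YARS1 call without every single array other than si-FAM210B replicate 2 and control replicate 3 (0.0608 to 0.149). Both calls were also lost after median centring, with only the groups compared and with the replicate number as a block. That of YARS1 was lost too without the level filter and with array weights. IARS1 and YARS1 without both deviating arrays passed against control (-0.34 and -0.23, adjusted p = 0.00502 and 0.00886) and between the siRNAs (-0.27 and -0.21, 0.00675 and 0.00751).

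WARS1, the tryptophan enzyme, which interferon also induces, followed another order. It read 8.37, 8.39 and 8.37 in control, 8.40, 8.47 and 8.42 with si-FAM210B and 8.63, 8.68 and 8.65 with si-UQCRC2. The si-UQCRC2 arrays stood clear of the rest, and si-FAM210B lay just above control. WARS1 rose by 0.28 ± 0.05 with si-UQCRC2 (SE, adjusted p = 0.0130) and was lower with si-FAM210B than with si-UQCRC2 by -0.22 ± 0.05 (0.0239). The first call was lost without control replicates 1 or 2 or any si-UQCRC2 array (0.0558 to 0.0910), the second without si-FAM210B replicate 3 or any si-UQCRC2 array (0.0686 to 0.113). The first was also lost after median centring, the second with array weights and with only the groups compared, and both with the replicate number as a block. With both deviating arrays left out the WARS1 differences were 0.28 (0.00290) and -0.21 (0.00774). WARS1 was 1 of the 4 synthetases that had a RefSeq window but not the motif.

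GARS1 and NARS1, the glycine and asparagine enzymes, did not pass. GARS1 read 10.02, 9.91 and 9.76 in control, 9.38, 9.84 and 9.83 with si-FAM210B and 10.08, 10.06 and 10.05 with si-UQCRC2. NARS1 read 10.34, 10.18 and 10.04 in control, 9.54, 10.08 and 10.12 with si-FAM210B and 10.22, 10.20 and 10.24 with si-UQCRC2. Both had si-FAM210B replicate 1 far below its group and no overlap between the siRNA groups, with differences of -0.38 ± 0.12 (adjusted p = 0.0698) and -0.30 ± 0.14 (0.175). With those 2 arrays left out GARS1 passed (-0.23, 0.00739) and NARS1 did not (-0.12, 0.140). SARS1, the serine enzyme, was higher with si-UQCRC2 than control by 0.27 ± 0.07 without passing (0.0679; 0.25 and 0.00404 without both). The remaining 5, EPRS1, HARS1, LARS1, MARS1 and TARS1, differed by at most 0.25 in size, and none was called in the fit reported. HARS1 passed for si-UQCRC2 against control with array weights, where 7531 of all genes were called. MARS1 passed between the siRNAs after cyclic loess, without si-FAM210B replicate 2 and without both deviating arrays (-0.16, 0.0242 in the last).

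XPOT, which exports tRNAs from the nucleus, had the widest spread of any tested member. It read 9.53, 9.43 and 9.16 in control, 8.32, 9.08 and 9.03 with si-FAM210B and 9.31, 9.22 and 9.28 with si-UQCRC2. The si-FAM210B arrays lay below all others, with an SD of 0.43. XPOT differed by -0.56 ± 0.18 from control (adjusted p = 0.0906) and by -0.46 ± 0.18 from si-UQCRC2 (0.124). Without both deviating arrays the differences were -0.42 (adjusted p = 0.00229) and -0.21 (0.0179), and si-UQCRC2 then differed from control by -0.21 (0.0243).

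**Figure D5:**
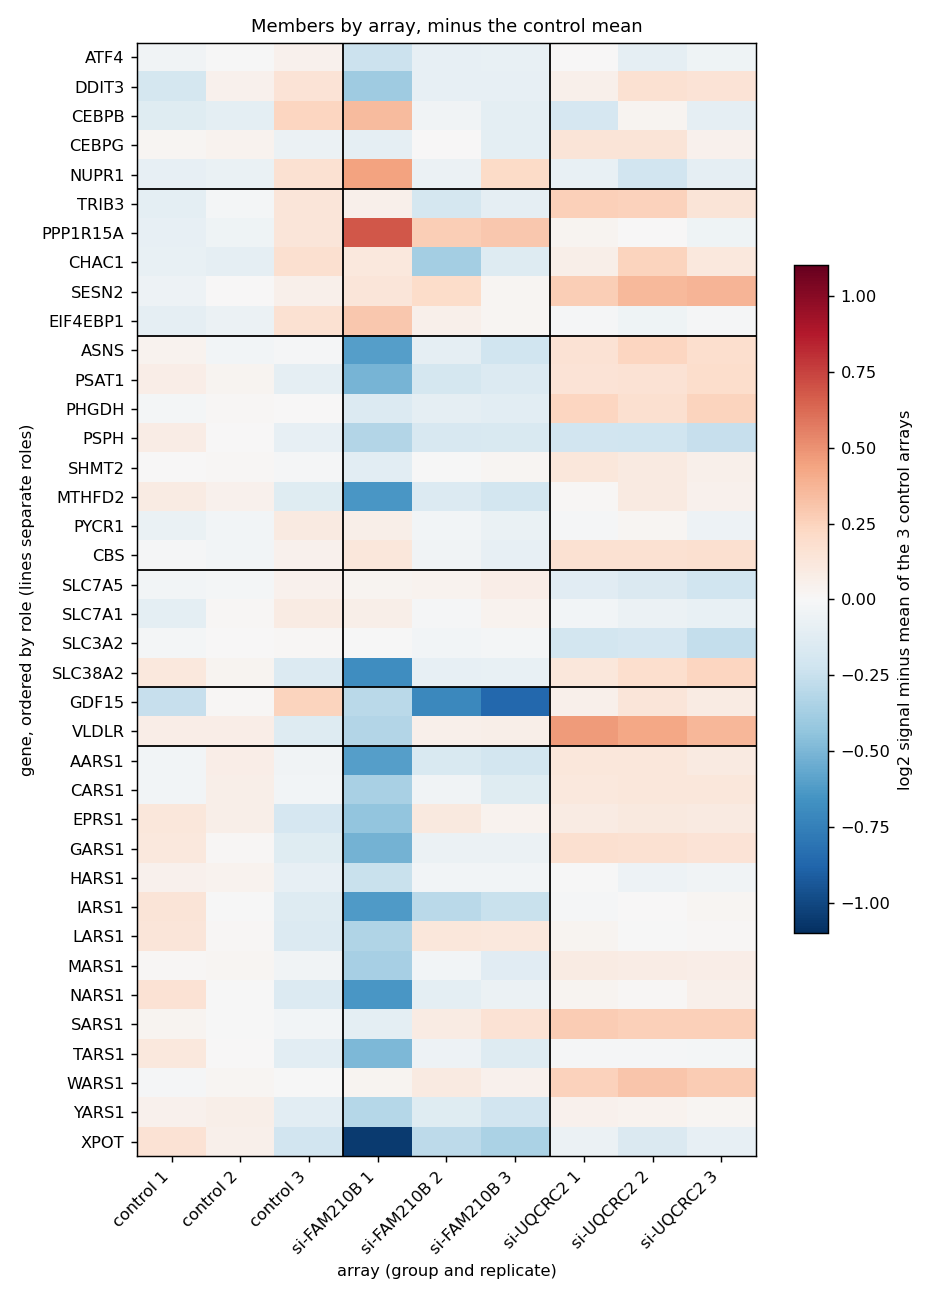
Log2 signal of the 38 tested members on the 9 arrays, minus the mean of the 3 control arrays (colour scale), with genes grouped by role and 3 columns per group. Blue dominates the synthetases and amino acid enzymes of si-FAM210B replicate 1 and is paler in replicates 2 and 3, GDF15 is bluer in replicates 2 and 3, and VLDLR, SESN2, SARS1 and WARS1 are red across si-UQCRC2.

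Both untested members read low in every array. CTH, which makes cysteine at the end of transsulfuration, ranged from 3.46 to 3.84, and FGF21, a hormone of fasting and mitochondrial stress, from 3.44 to 3.85. They were not tested. Members with and without the motif in their windows lay mostly on the same side of 0. Between the siRNAs, the 12 tested members with the motif had a median difference of -0.29, with 4 lower and 1 higher called, and the 19 without it -0.22, with 5 lower and 2 higher.

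Of 18 other targets of ATF4 or of amino acid shortage that were tested, 2 rose with si-UQCRC2 and 5 were lower with si-FAM210B than with si-UQCRC2. Of all tested genes 3.02% rose with si-UQCRC2 against control and 6.5% were lower between the siRNAs. With si-FAM210B against control 1 of the 18 (5.56%) was called, near the 6.28% of all genes. ALDH1L2, a mitochondrial folate enzyme, read 6.23, 6.26 and 6.21 with si-UQCRC2 against 5.72, 5.74 and 5.47 in control and 5.29, 5.89 and 5.74 with si-FAM210B. SLC1A4, a carrier of alanine, serine and cysteine, read 7.25, 7.27 and 7.24 against 6.90, 6.95 and 6.97 and 6.88, 6.85 and 6.85. In both genes the si-UQCRC2 arrays stood above all others. ALDH1L2 rose by 0.59 ± 0.14 over control (adjusted p = 0.0388) and SLC1A4 by 0.31 ± 0.05 (0.00690). Between the siRNAs they differed by -0.59 (0.0254) and -0.40 (0.00169), and DDIT4 (-0.35), PCK2 (-0.28) and STC2 (-0.28) were lower too. The SLC1A4 difference between the siRNAs held without each single array (adjusted p up to 0.0171), and the other 4 were lost without 2 or more of them (up to 0.107). Against control it was lost without si-UQCRC2 replicate 2 (0.0545), and that of ALDH1L2 without 7 of the 9 single arrays (up to 0.150). With si-FAM210B, GRB10, an adaptor that dampens insulin signalling, rose by 0.29 ± 0.05 against control (0.0142), a call lost without control replicates 1 or 2 (up to 0.0691). In the fit of the other 7 arrays 6 of the 18 rose with si-UQCRC2, 7 were lower between the siRNAs, and 2 rose and 2 fell with si-FAM210B. Over all genes that fit called 17.1%, 24.0% and 24.4% in these comparisons, so the si-FAM210B count was near the background.

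Upstream of ATF4, EIF2AK1 and EIF2S2 were lower with si-FAM210B. They were the only calls among 16 tested genes (12.5%) against control and between the siRNAs. Of all genes 6.28% and 9.78% were called in those comparisons. EIF2AK1 is the heme-regulated eIF2 kinase, which also relays mitochondrial stress. It read 8.87 to 9.08 with si-FAM210B, below the 9.34 to 9.46 of control and the 9.28 to 9.35 of si-UQCRC2. EIF2AK1 fell by 0.40 ± 0.07 against control (SE, adjusted p = 0.00839), a call kept without each single array (up to 0.0476), and differed by -0.33 ± 0.07 from si-UQCRC2 (0.0147), which was lost without any one si-UQCRC2 array (up to 0.0808). With only the groups compared, limma called 0 of the 68 tested genes in the other gene lists, markers aside, for si-FAM210B against control. The calls of EIF2AK1, EIF2S2, GRB10 and PDIA4 against control were thus lost in that setting. In the fit reported 18 of the 68 had an unadjusted p under 0.05. EIF2S2, the beta subunit of eIF2, fell by 0.27 ± 0.06 against control (0.0211) and differed by -0.26 ± 0.06 from si-UQCRC2 (0.0200). Its call against control was lost without 5 of the 9 single arrays (up to 0.0993), and that between the siRNAs without 4 (up to 0.102). None of the 16 genes of this list was called by limma with si-UQCRC2 against control, where 4.46% of all genes were. At an unadjusted p under 0.05 the count for the list was 0. The other eIF2 kinases, EIF2AK2 (-0.23), EIF2AK3 (-0.14) and EIF2AK4 (0.10), did not pass with si-FAM210B when all arrays were used. EIF2AK2 passed there with both deviating arrays left out (-0.17, 0.0401). In that fit 6 of the 16 genes were lower against control with si-FAM210B, where 24.4% of all genes were called. With si-UQCRC2 limma called 0 of the 16 (3 at an unadjusted p under 0.05), against 17.1% of all genes. Between the siRNAs 2 were lower, against 24.0% of all genes called.

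Synthetases outside the member list were described from lists of 7 tested cytosolic genes and 16 tested mitochondrial ones. The cytosolic list also held AIMP1, a scaffold protein of the synthetases, so its values are not of synthetases alone. Between the siRNAs, the cytosolic list had a median of -0.00, against -0.25 for the 13 member synthetases, and VARS1, the valine enzyme, was higher with si-FAM210B by 0.30 ± 0.05 (adjusted p = 0.00662), a call kept without each single array (up to 0.0464). VARS1 has 7 rows, of which 1 was used. The mitochondrial list had a median of 0.03 between the siRNAs with none called (5 at an unadjusted p under 0.05). Of all genes 9.78% were called between the siRNAs. With both deviating arrays left out the cytosolic median was 0.13 with 3 of 7 called higher, the mitochondrial 0.04 with 3 higher and 2 lower of 16, and that of the 13 member synthetases -0.16. That fit called 24.0% of all genes between the siRNAs. EARS2 (-0.34 ± 0.07, adjusted p = 0.0218) and SARS2 (-0.25 ± 0.06, 0.0384), which load mitochondrial tRNAs, fell with si-UQCRC2 against control, each call lost without 5 or more single arrays (up to 0.126 and 0.195). That was 12.5% of the 16, where 4.46% of all genes were called. The motif was held by 0 of 8 genes with a window in the first list and 1 of 14 in the second. With these sizes no difference between the lists was tested.

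Genes of the other arms of endoplasmic reticulum stress also differed between the siRNAs. Of 11 tested, HERPUD1 (-0.48), EDEM1 (-0.30), XBP1 (-0.32) and PDIA4 (-0.25) were lower with si-FAM210B than with si-UQCRC2 (adjusted p = 0.0372, 0.0149, 0.0137 and 0.0322), each lost without 3 or more single arrays (up to 0.135). That was 36.4% of the list, where 6.5% of all genes were lower. Against control, PDIA4 fell with si-FAM210B (-0.29, 0.0215, lost without 4 single arrays), and limma called none with si-UQCRC2 (2 at an unadjusted p under 0.05). Of all genes 6.28% and 4.46% were called in those comparisons. On the other 7 arrays 6 were lower between the siRNAs, with HERPUD1 at -0.32, 3 were lower with si-FAM210B and 2 higher with si-UQCRC2 against control. Of all genes 24.0%, 24.4% and 17.1% were called there, so the counts against control were near the background.

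The labelled cell type carried its markers, and some of these shifted. All 10 listed markers of A549 and airway epithelium were above the level filter. CDH1 and GPX2 fell with si-FAM210B, with log2 fold changes of -1.09 ± 0.06 and -1.50 ± 0.07 (adjusted p = 1.82e-05 for both), and the list held 4 genes lower with si-FAM210B and 2 higher with si-UQCRC2 against control. Of all genes 3.5% were lower and 3.02% higher in those comparisons. Between the siRNAs 6 of the 10 were lower with si-FAM210B (6.5% of all genes were), and all 10 differences were below 0 (median -0.36). Leaving out both deviating arrays, the counts were 5 lower, 3 higher and 8 lower, where 24.4%, 17.1% and 24.0% of all genes were called. Their mean log2 level over the 10 genes was 8.83 to 8.97 on the si-FAM210B arrays, 9.29 to 9.34 in control and 9.36 to 9.44 with si-UQCRC2. Of the 10 listed markers of blood, endothelium and fibroblasts, 8 had a row. PTPRC, HBB and PECAM1 were below the filter, and CD68 (7.89 in control), COL1A1 (6.44), PDGFRB (4.88), CDH5 (4.84) and CD3E (4.44) were above it. Their mean level was 4.80 to 5.00 with si-FAM210B, 4.63 to 4.74 in control and 4.72 to 4.75 with si-UQCRC2. Of the 5 tested, CD68, a lysosomal protein abundant in macrophages, rose with both siRNAs (0.70 and 0.64; adjusted p = 0.000428 and 0.000587), and COL1A1, a collagen chain of fibroblasts, was higher with si-FAM210B than with si-UQCRC2 (0.40, 0.0205). The part of these shifts in the members' values was not tested.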

How the data were processed

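RNA of 9 samples was measured on Affymetrix whole-transcript arrays, 3 per group, and groups and replicate numbers were taken from the sample titles. The deposited values are log2 signals. Per the submitters' processing notes, RMA produced them, which subtracts background and equalises the distribution of probe signals. The software and the arrays' build are not given in the sources analysed. Rows were named from the platform annotation, with symbols updated through RefSeq records, and 23781 of 67528 rows had 1 symbol. The row with the highest mean stood for a gene. Genes with a mean under the median of all row means, 4.25, were left out. One model of all 9 arrays was fitted with limma 3.58.1 in R 4.3.3, with Benjamini-Hochberg adjustment over 15964 genes, and was tested on simulated data. The simulated arrays had the same spread per gene in all groups and no deviating array. That test therefore does not cover the unequal spread of these groups. Arrays have no counting depth, and their number limits the precision. Members named with array values were those called, or not overlapping with a log2 fold change of at least 0.3, together with ATF4 and DDIT3; of other lists, called genes were named by smallest p. PSPH was given by array, outside this rule, after its values were seen. EIF2AK2, EIF2AK3, EIF2AK4 and the examples of uncalled members were named after their values were seen. The members, the gene lists and the omission of both deviating arrays were chosen with earlier results of these data known. Alternatives covered filters, scalings, weights, a replicate block and single arrays.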

Additional observations from a re-analysis of the deposited data

How the results depend on the processing

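With all 9 arrays, 1 member was called for si-FAM210B against control, 4 for si-UQCRC2 against control and 13 between the siRNAs. Leaving out 1 array gave 0 to 6, 0 to 9 and 1 to 21. In the first comparison the count was 3 with a stricter filter, 2 when a gene's rows were averaged, 0 after quantile normalization (limma; 11 members had an unadjusted p under 0.05 in the fit reported), 2 after median centring, 3 with array weights, 0 with only the groups compared and 9 without both deviating arrays. After cyclic loess the 1 member called in the first comparison was PPP1R15A and not GDF15. In the second comparison the count was 2 with no filter (SESN2 and WARS1), 1 after median centring (SESN2), 20 with array weights, 8 with only the groups compared and 11 without both deviating arrays. In the third it was 7 with array weights, 4 with only the groups compared (GDF15, PHGDH, PSAT1 and VLDLR) and 23 without both deviating arrays. The replicate number as a block gave 0, 0 and 7 members. Whether the numbers pair the arrays is not known. Deviations of same-numbered si-FAM210B and control arrays from their group means correlated at -0.584, 0.512 and -0.388. Those of si-FAM210B replicate 1 and control replicate 3, both deviating, correlated at 0.742, so these values cannot decide it. The median log2 fold change of the members kept its sign throughout. It ranged over single arrays left out from -0.14 to -0.08, from 0.0625 to 0.0937 and from -0.26 to -0.18. For si-FAM210B against control it was -0.06 after quantile normalization or cyclic loess and -0.18 after median centring, against -0.11, and between the siRNAs -0.31 after median centring, against -0.22. For si-UQCRC2 against control it was 0.11 after cyclic loess, 0.049 with array weights and 0.0625 without both deviating arrays, against 0.09. Over all genes, the calls were 1002, 712 and 1561, of which 444, 482 and 524 were higher. The first count was 559 (184 higher) after median centring, 227 with only the groups compared, 409 with the block and 3889 without both deviating arrays, and after quantile normalization 533 of 960 were higher. The second was 7531 with array weights, 1449 with only the groups compared, 342 with the block and 2736 without both. The third was 830 with array weights, 1040 with only the groups compared, 798 with the block and 3835 without both, and after median centring 212 of 1163 were higher. Among the 114 single-member comparisons, 133 alternative values lost a call, 95 gained one and 0 reversed a called direction. The cause of these changes was not tested. The number of arrays and their unequal spread limit all of these calls.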
